A study of Mus musculus with 40 samples.

Results

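Transcripts of 10 genes that brain endothelial cells use to build and maintain the blood-brain barrier were followed in the injured mouse cortex: Cldn5, Ocln, Tjp1, Pecam1, Cdh5, Flt1, Slc2a1, Mfsd2a, Abcb1a and Sox17. They were picked by gene symbol from the 55539 features of the count matrix, each symbol matched 1 row, and all 10 passed the filter on low counts that left 15232 features for testing. In these samples the 10 transcripts were readily detected, no member passed the test after adjustment in any comparison, and the spread between mice of a group was often as large as the differences between groups. The values closest to a change were a low Sox17 level 4 h after the first injury, a higher Slc2a1 level 30 min after the first injury, and high Mfsd2a levels in some of the mice after 5 injuries.

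The mice were 3xTg-AD females aged 2 to 4 months, an Alzheimer's disease model on a C57BL/6J background that carries human transgenes for amyloid precursor protein and tau and a mutant presenilin gene, and RNA was taken from the somatomotor cortex of the left hemisphere. The sham-injured mice carried the same transgenes, so no group without them is present. Closed head injury (CHI) was given by dropping a weight on the intact skull of the anesthetized mouse, once daily. Sham-injured mice (n = 4) had anesthesia without an impact, and shams of different numbers of anesthesia exposures were combined. Tissue was taken 30 min (n = 3), 4 h (n = 3) or 24 h (n = 4) after 1xCHI, 30 min (n = 3), 4 h (n = 2) or 24 h (n = 4) after 3xCHI, and 30 min (n = 3), 4 h (n = 3) or 24 h (n = 4) after 5xCHI. Tissue was also taken 24 h after 2xCHI (n = 3) and 24 h after 4xCHI (n = 3), and these mice, sampled before the next daily impact, served as the pre-injury level for 3xCHI and 5xCHI. Each sample was 1 mouse, and a further 3xCHI 4 h sample (sample 30) was left out.

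The blood-brain barrier is formed by endothelial cells that seal the gaps between them with tight junctions, allow little vesicle traffic, and move nutrients and drugs through dedicated transporters. Pericytes, astrocyte endfeet and Wnt signals from neural tissue keep endothelial cells in this state. Leakage of the barrier is a known feature of traumatic brain injury. In whole cortex these cells are a small part of the tissue, and a fall in a transcript of theirs from fewer endothelial cells cannot be told apart from less RNA per cell.

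Sequencing depth was 15926014 to 27859547 estimated counts per sample (median 19028778), and the raw counts behind the member values ranged from 38 for Sox17 to 3459, so Sox17 had the least precise values. Within groups, all 46 pairs of samples differed by more than sampling noise. Samples 1 to 18 and samples 19 to 40 are also shown apart, a division that the labels do not name as a batch and that was chosen in earlier work once principal components were known. The 3xCHI 4 h group lies wholly in samples 1 to 18, while 2xCHI and 4xCHI lie wholly in samples 19 to 40. Choroid plexus markers were listed at 2.94 to 2469 CPM summed over the samples, with the highest sums in sample 31 (5xCHI 30 min) and sample 32 (5xCHI 4 h), and leukocyte markers at 0.596 to 4.35 CPM, with 0 of 6 genes past the filter. An independent set of endothelial markers (Emcn, Tie1, Tek, Esam, Egfl7 and Ly6c1) was detected in every sample, at 56.4 to 103 CPM summed, so endothelial RNA was present throughout.

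CPM values, counts scaled to the total of the library, do not correct for transcript length, so levels were set against each other only per kilobase of exon. The glucose transporter Slc2a1 (GLUT1) was the most abundant member, at 20.2 ± 4.18 CPM per kb (SD, n = 39), followed by the tight junction protein Cldn5, the main claudin of brain endothelium, at 18.4 ± 4.48 CPM per kb. Tjp1 (ZO-1), which ties junction proteins to actin, stood at 12.3 ± 1.79 CPM per kb, Mfsd2a, the transporter of lysophosphatidylcholine lipids that also restrains vesicle traffic, at 7.62 ± 2.34 CPM per kb, and Abcb1a, which encodes the drug efflux pump P-glycoprotein, at 4.88 ± 1.24 CPM per kb. Lower levels were found for the VEGF receptor Flt1 (3.25 ± 0.711 CPM per kb), the adhesion molecule Pecam1 (2.49 ± 0.527 CPM per kb), VE-cadherin Cdh5 of the adherens junction (2.33 ± 0.525 CPM per kb) and occludin Ocln (1.44 ± 0.277 CPM per kb). Sox17, a transcription factor of endothelial and arterial identity, was lowest at 0.857 ± 0.232 CPM per kb. The levels of Slc2a1 and Cldn5 lie within each other's spread, as do those of Pecam1 and Cdh5, and the values describe the whole cortex, since Slc2a1 and Tjp1 are also expressed by other brain cells.

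Tjp1 varied least over the 39 samples, with the highest value 1.92 times the lowest (68.3 to 131 CPM), and Mfsd2a most, with 3.75 times (9.54 to 35.7 CPM). Sox17 came next at 3.52 times (1.89 to 6.65 CPM), followed by Abcb1a at 3.05 times. Slc2a1 (2.20 times), Ocln (2.17 times), Pecam1 (2.62 times), Cldn5 (2.71 times), Cdh5 (2.78 times) and Flt1 (2.82 times) lay between. The plot of member levels by sample shows these ranges group by group.

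**Figure D1:**
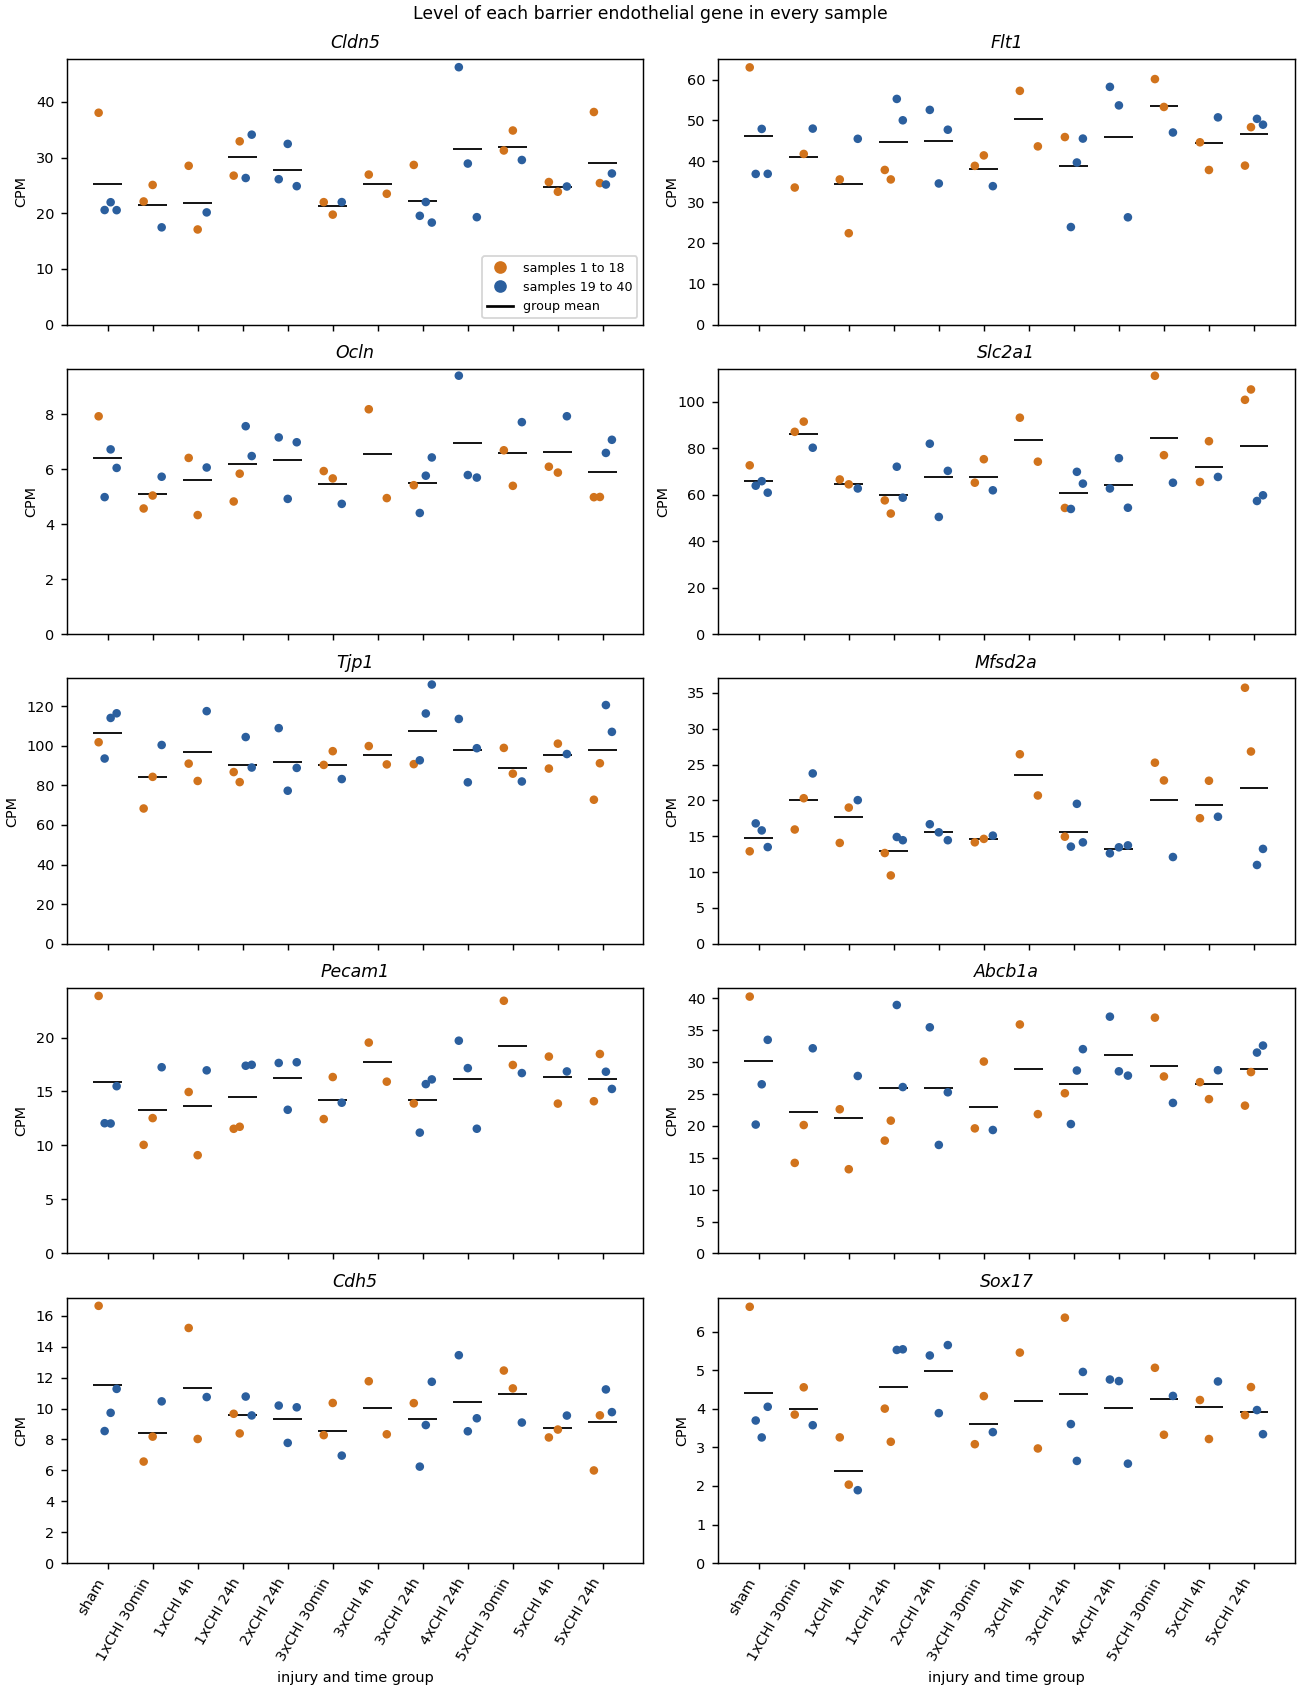
Level of each of the 10 genes in CPM (vertical axis, 1 panel per gene) in every sample of the 12 injury and time groups (horizontal axis), with orange points for samples 1 to 18, blue points for samples 19 to 40 and a black line at the group mean. Mfsd2a has its highest value, 35.7 CPM, at 24 h after 5xCHI, and Sox17 its lowest group mean, 2.39 CPM, at 4 h after 1xCHI.

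One of the 4 sham-injured mice, sample 6, had higher levels of most members than the other shams, and it enters every comparison with sham. Its level lay above all 3 other shams for 8 of 10 members, between them for Tjp1 and below them for Mfsd2a. Cldn5 was 38.0 CPM in sample 6 against 20.5 to 22.0 CPM in the other shams, Pecam1 23.9 against 12.0 to 15.5 CPM, and Cdh5 16.6 against 8.54 to 11.3 CPM. Marker sums of neighbouring cells stood apart in the same sample: endothelial markers summed to 103 CPM against 62.1 to 65.6 CPM in the other shams, mural cell markers to 307 against 198 to 215 CPM, and meningeal fibroblast markers to 173 against 101 to 117 CPM. The part of these cells in the member values was not tested. For the main results against sham, the value without this mouse is given beside the value with it.

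The first question was how each member moved from the pre-injury level to the 3 times after 1xCHI, 3xCHI and 5xCHI. Of 90 member values in these 9 comparisons, 0 passed the adjusted threshold of 0.05 (edgeR, Benjamini-Hochberg adjustment over 15232 features, smallest adjusted p = 0.200) and 5 had an unadjusted p under 0.05. The 3 comparisons after 1xCHI share the 4 shams, the 3 after 3xCHI share the 2xCHI mice, and the 3 after 5xCHI share the 4xCHI mice. No feature passed the adjusted threshold in any of them (0%), and DESeq2 called 44 features over the 9 comparisons, none of them members. These counts depended on single libraries: edgeR called 3597 features at 30 min after 1xCHI without sample 27 and 606 features at 4 h without sample 36, and still 0 members.

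At the unadjusted threshold, 1 of 10 members passed 30 min after 1xCHI against 19.4% of all features, 1 of 10 at 4 h against 10.5%, and 0 of 10 at 24 h against 5.85%. After 3xCHI, 0 of 10 passed at 30 min (1.87% of all features), at 4 h (1.97%) and at 24 h (4.51%). After 5xCHI, 2 of 10 passed at 30 min (6.24%), 0 of 10 at 4 h (5.23%) and 1 of 10 at 24 h (6.53%). After 1xCHI and 3xCHI the members' share did not exceed that of all features, and after 5xCHI it rested on 3 values of 2 genes.

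The direction of the members can be described by their median log2 fold change, which was negative at all 3 times after 1xCHI: -0.19 at 30 min (8 of 10 values negative), -0.21 at 4 h (9 of 10) and -0.13 at 24 h (8 of 10). After 3xCHI it was -0.20 at 30 min (10 of 10 negative), 0.11 at 4 h (2 of 10) and -0.17 at 24 h (8 of 10). After 5xCHI it was 0.08 at 30 min (3 of 10 negative), -0.06 at 4 h (6 of 10) and -0.01 at 24 h (5 of 10). Over all features tested the medians were between -0.01 and 0.01. The negative medians after 1xCHI rested on sham sample 6: without it they were 0.05 at 30 min (4 of 10 negative), -0.03 at 4 h (5 of 10) and 0.00 at 24 h (5 of 10). The members move together within samples, so these medians rest on few independent values.

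**Figure D2:**
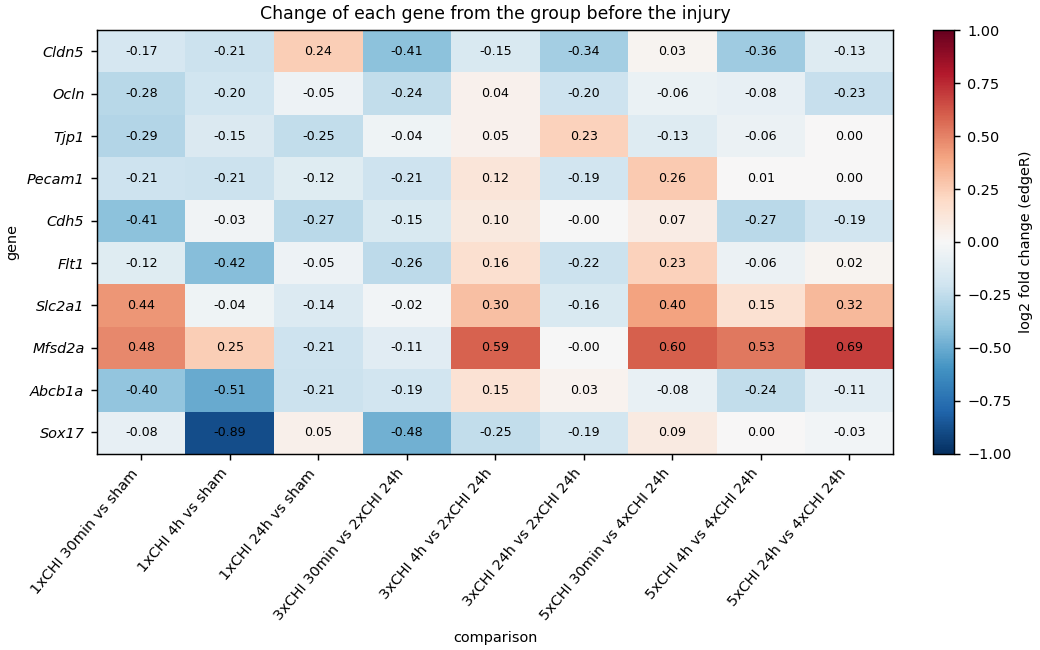
Log2 fold change of each of the 10 genes (rows) in the 9 comparisons of a time after injury with its pre-injury group (columns), written in each cell and shown by colour, with red for positive and blue for negative values. The change of Sox17 at 4 h after 1xCHI (-0.89) and that of Mfsd2a at 24 h after 5xCHI (0.69) lie farthest from 0, and 0 values pass after adjustment.

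Sox17 lies on mouse chromosome 1 (GRCm38, chr1:4490931-4497354, minus strand, ENSMUSG00000025902). The overlapping feature on the other strand, Gm37587, reached at most 0.108 CPM, and its mean was 0.230% of the mean of Sox17. In sham-injured mice Sox17 was at 6.65, 3.70, 3.26 and 4.05 CPM, with the highest value in sample 6. At 4 h after 1xCHI it was at 3.26, 2.03 and 1.89 CPM. This group had the lowest mean of the 12, 2.39 ± 0.75 CPM (SD, n = 3) against 4.41 CPM in sham. Its highest sample and the lowest sham were equal to 3 digits, and the other samples of the group lay under every sham.

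The log2 fold change of Sox17 at 4 h after 1xCHI was -0.89 (SE 0.30, 95% confidence interval -1.49 to -0.28, edgeR adjusted p = 0.365), and its p before adjustment was under 0.05. Sox17 at this time was singled out with earlier results of these data known, so this is not independent evidence. Without sham sample 6 the log2 fold change was -0.62 (adjusted p = 0.429, edgeR), and over all single samples left out it ranged from -1.15, without sample 15, to -0.62. The exact permutation test of mean log2 CPM gave a difference of -0.86 with p = 0.114, two-sided, where the smallest p these group sizes allow is 0.0571. On TMM effective library sizes the difference was -0.87 and the exact permutation p was 0.0571. Within samples 1 to 18 the mean was 2.65 CPM (n = 2) against 6.65 CPM in the single sham, and within samples 19 to 40 it was 1.89 CPM (n = 1) against 3.67 CPM (n = 3), and on each side 1 arm was a single mouse.

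The 6 independent endothelial markers summed to 89.2 CPM in sample 15, 65.7 CPM in sample 16 and 68.9 CPM in sample 36, against 103 CPM in sham sample 6 and 62.1 to 65.6 CPM in the other shams. Sample 15 also had the highest meningeal fibroblast sum of the study, 471 CPM, and mural cell markers of 361 CPM, while samples 16 and 36 had meningeal sums of 126 and 93.2 CPM. Sox17 was lowest in the latter pair of mice. Neuron markers summed to 5902, 6524 and 7049 CPM in samples 15, 16 and 36 against 7111 to 7353 CPM in sham. Sample 16 had astrocyte markers of 2767 CPM against 3851 to 4791 CPM in sham, and microglia markers of 228 against 283 to 319 CPM. Samples 15 and 36 lay within both of these sham ranges. The part of vessel content and of these cells in the Sox17 level was not tested. Among the other members at this time, the log2 fold change was -0.51 for Abcb1a, -0.42 for Flt1, -0.21 for Cldn5 and Pecam1, -0.20 for Ocln, -0.15 for Tjp1, -0.04 for Slc2a1, -0.03 for Cdh5 and 0.25 for Mfsd2a, none with an unadjusted p under 0.05. Without sham sample 6 the values were -0.33 for Abcb1a, -0.24 for Flt1, 0.05 for Cldn5 and Pecam1, -0.08 for Ocln, 0.02 for Slc2a1 and 0.20 for Cdh5. Sample 16 had the lowest level of the 39 samples for 5 members (Cldn5, Ocln, Pecam1, Flt1 and Abcb1a) and the lowest sum of the 10 members, 242 CPM.

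At 4 h after later injuries, 1 sample of each group lay within the 1xCHI 4 h range and under the lowest sham. At 4 h after 3xCHI it was at 5.46 and 2.97 CPM, and at 5.38, 3.89 and 5.65 CPM in 2xCHI mice (log2 fold change -0.25, 95% confidence interval -0.94 to 0.45, edgeR adjusted p = 1.00). At 4 h after 5xCHI it was at 4.23, 3.22 and 4.71 CPM against 4.76, 4.72 and 2.58 CPM in 4xCHI mice (log2 fold change 0.00, 95% confidence interval -0.63 to 0.63, edgeR adjusted p = 1.00). The difference between the changes after the first and the fifth injury was -0.89 (95% confidence interval -1.76 to -0.02, edgeR adjusted p = 1.00), and -0.64 (adjusted p = 0.997, edgeR) without sham sample 6. Between the first and the third injury it was -0.64 (95% confidence interval -1.56 to 0.28, edgeR adjusted p = 1.00). That value was -0.38 without sham sample 6, -0.12 without sample 1 of 3xCHI at 4 h and -0.999 without sample 3 of the same group. Neither difference passed after adjustment, and the first was under 0.05 before adjustment but not when any of several single samples was left out, sham sample 6 and sample 40 of 4xCHI among them, or with the sample number side as a covariate.

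At the other times after 1xCHI, Sox17 was at 3.85, 4.56 and 3.58 CPM at 30 min and at 4.01, 3.15, 5.53 and 5.54 CPM at 24 h, and 1 of these 7 samples lay under the lowest sham. The highest group mean was that of 2xCHI at 24 h, 4.98 CPM, and every group mean other than that of 1xCHI at 4 h was between 3.60 and 4.98 CPM. Single shams spanned 3.26 to 6.65 CPM, and 3.26 to 4.05 CPM without sample 6. The test for any difference between the 12 groups gave an adjusted p = 0.845 for Sox17 (edgeR).

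**Figure D3:**
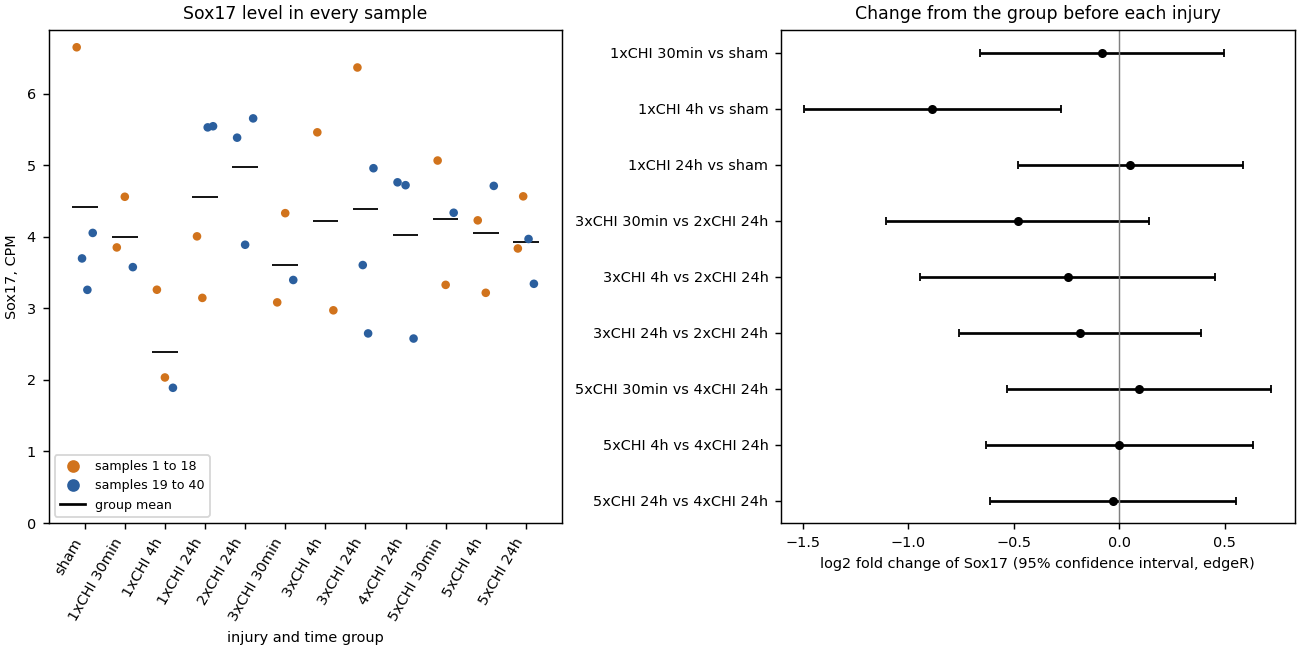
Sox17 level in CPM (vertical axis) in each sample of the 12 injury and time groups (horizontal axis), with orange points for samples 1 to 18, blue points for samples 19 to 40 and a black line at the group mean (left), and its log2 fold change in the 9 time comparisons with 95% confidence intervals (right). The 1xCHI 4 h samples, at 1.89 to 3.26 CPM, form the lowest group, and sham sample 6 is the highest point, 6.65 CPM.

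The 2 nutrient transporters of the list, Slc2a1 and Mfsd2a, were correlated over the samples. Both promoters are shown because a short motif occurs in their windows and in no other matched member window, a choice made after the matches were seen. Sox17, Pecam1 and Cdh5 had no matched window, and no link between the motif and the correlation was tested. RefSeq (GRCm38.p6) promoter windows, the 250 bases before a RefSeq transcript start, were matched for 7 of 10 members, in 8 windows. These starts can differ from the gene ends given here from GENCODE: the Slc2a1 window runs past the GENCODE start, that of Abcb1a lies far upstream of it, and that of Tjp1 lies within the gene. Capitals mark ACGTG, the core to which hypoxia-inducible factors bind, searched together with its reverse complement CACGT. In the Slc2a1 window this match lies across the GENCODE start. Slc2a1 is given at chr4:119108495-119108744 on the plus strand and Mfsd2a at chr4:122961189-122961438 on the minus strand, each 5′ to 3′.
Slc2a1: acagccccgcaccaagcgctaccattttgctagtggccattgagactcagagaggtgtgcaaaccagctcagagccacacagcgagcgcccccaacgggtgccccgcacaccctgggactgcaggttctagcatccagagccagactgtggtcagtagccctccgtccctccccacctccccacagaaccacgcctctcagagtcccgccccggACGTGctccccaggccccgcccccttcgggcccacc
Mfsd2a: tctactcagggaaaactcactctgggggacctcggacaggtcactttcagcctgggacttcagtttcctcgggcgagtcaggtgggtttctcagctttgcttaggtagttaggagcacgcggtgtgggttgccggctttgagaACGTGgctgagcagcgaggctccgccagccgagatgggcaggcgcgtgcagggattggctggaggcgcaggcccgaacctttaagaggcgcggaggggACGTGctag
The motif occurs in 2 of 8 member windows and in 16.6% of all 32851 windows of the same length, so 2 matches do not set the members apart. ACAAT or ATTGT, a core bound by SOX proteins, occurs in 0 of 8 member windows and in 27.7% of all windows, and GGAAG or CTTCC, an ETS core, in 3 of 8 (Abcb1a, Flt1 and Tjp1) and in 64.1% of all windows. These matches describe letters in a window and say nothing of binding.

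Slc2a1 (chr4:119108711-119137983, plus strand) carries glucose across the endothelium into the brain. It was at 72.6, 63.9, 65.8 and 60.9 CPM in sham-injured mice and at 87.0, 91.4 and 80.2 CPM 30 min after 1xCHI. All injured mice lay above all shams, a pattern of no overlap in the higher direction that 2.57% of all features showed in this comparison. The log2 fold change was 0.44 (SE 0.18, 95% confidence interval 0.07 to 0.81, a 1.36-fold ratio, edgeR adjusted p = 0.200). It was 0.48 without sham sample 6 and 0.38 (adjusted p = 0.384, edgeR) with the sample number side as a covariate. Hemoglobin markers of red blood cells summed to 484, 483 and 84.9 CPM in these 3 mice against 170 to 270 CPM in sham, and the lowest sum belongs to sample 27, which had the lowest Slc2a1 level of the group. Microglia markers summed to 248 to 273 CPM in these mice against 283 to 319 CPM in sham. Astrocyte markers summed to 2632, 3284 and 4080 CPM against 3851 to 4791 CPM. The 6 independent endothelial markers summed to 83.4, 91.5 and 74.3 CPM in samples 13, 14 and 27. They summed to 62.1 to 65.6 CPM in 3 shams and to 103 CPM in sham sample 6. The part of blood, of vessel content and of these cells in the Slc2a1 level was not tested.

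At later times after 1xCHI, Slc2a1 was within or under the range of sham, at 66.5, 64.4 and 62.7 CPM at 4 h and at 57.6, 51.9, 72.0 and 58.7 CPM at 24 h. At 30 min after 3xCHI it was at 65.1, 75.3 and 61.9 CPM, against 81.9, 50.4 and 70.2 CPM in 2xCHI mice, with a log2 fold change of -0.02 (95% confidence interval -0.42 to 0.38, edgeR). At 30 min after 5xCHI it was at 111, 77.0 and 65.1 CPM, against 62.7, 75.7 and 54.4 CPM in 4xCHI mice (log2 fold change 0.40, SE 0.20, edgeR adjusted p = 0.785). That value rested on sample 7 and was 0.17 (adjusted p = 0.868, edgeR) without it. The 24 h samples after 5xCHI fell in pairs, 101 and 105 CPM in samples 11 and 12 against 57.3 and 59.7 CPM in samples 33 and 34. The independent endothelial markers fell in the same pairs. These markers summed to 94.6 and 95.9 CPM in samples 11 and 12, and to 69.8 and 71.6 CPM in samples 33 and 34. The part of vessel content in this split of the Slc2a1 level was not tested.

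Mfsd2a (chr4:122946850-122961188, minus strand) showed the widest range of the members. Sham-injured mice were at 12.9, 16.8, 15.8 and 13.5 CPM, and 4xCHI mice were close together at 12.6, 13.5 and 13.7 CPM. After 5xCHI it was at 25.3, 22.8 and 12.1 CPM at 30 min, at 17.5, 22.7 and 17.7 CPM at 4 h, and at 35.7, 26.8, 11.0 and 13.2 CPM at 24 h. The samples that were high at 30 min and 24 h were numbered 7, 8, 11 and 12, and those that were low were numbered 31, 33 and 34.

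The log2 fold change of Mfsd2a from 4xCHI was 0.69 at 24 h after 5xCHI (SE 0.26, 95% confidence interval 0.16 to 1.23, edgeR adjusted p = 0.654), and 0.38 (adjusted p = 0.999, edgeR) without sample 11. At 30 min it was 0.60 (SE 0.28, edgeR adjusted p = 0.785), and 0.41 (adjusted p = 0.862, edgeR) without sample 7. At 4 h it was 0.53 (adjusted p = 0.924, edgeR), with all 3 samples above all 4xCHI mice, as for 6.64% of all features. All 4xCHI mice have sample numbers from 19 to 40. Within those numbers the 24 h samples after 5xCHI were at 11.0 and 13.2 CPM against 12.6 to 13.7 CPM, so the higher values came only from samples 11 and 12, which have no 4xCHI mouse on their side of the numbering. Sample 11, the highest for Mfsd2a, also had microglia markers summing to 771 CPM against 314 to 327 CPM in the other 3 mice of its group, neuron markers of 5002 CPM against 6545 to 7518 CPM, and oligodendrocyte markers of 8741 CPM against 4125 to 4816 CPM. Sample 10, the highest for Mfsd2a at 4 h after 5xCHI, had microglia markers of 629 CPM against 301 and 340 CPM in the others of its group, neuron markers of 5431 CPM against 6904 and 7147 CPM, and oligodendrocyte markers of 7753 CPM against 5291 and 6589 CPM. The 6 independent endothelial markers summed to 94.6 and 95.9 CPM in samples 11 and 12, and to 69.8 and 71.6 CPM in samples 33 and 34. In 4xCHI mice they summed to 58.9 to 82.8 CPM. Choroid plexus markers summed to 413 CPM in sample 12 against 18.7 to 39.8 CPM in the others of its group. The part of vessel content and of these cells in the Mfsd2a level was not tested.

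At 4 h after 3xCHI, Mfsd2a was at 26.4 and 20.7 CPM, above the 2xCHI mice at 16.7, 15.6 and 14.5 CPM (log2 fold change 0.59, edgeR adjusted p = 1.00), where 11.8% of all features were higher without overlap. The groups lie on different sides of the sample numbering, so number and injury cannot be told apart. With sample 30 kept, the log2 fold change was 0.40. At 30 min after 1xCHI, Mfsd2a was at 15.9, 20.3 and 23.8 CPM (log2 fold change from sham 0.48, edgeR adjusted p = 0.285), and 24 h after 1xCHI at 12.7, 9.54, 14.9 and 14.5 CPM. The difference between the 24 h changes after the first and the fifth injury was -0.90 (SE 0.36, edgeR adjusted p = 0.996), and -0.58 without sample 11.

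**Figure D4:**
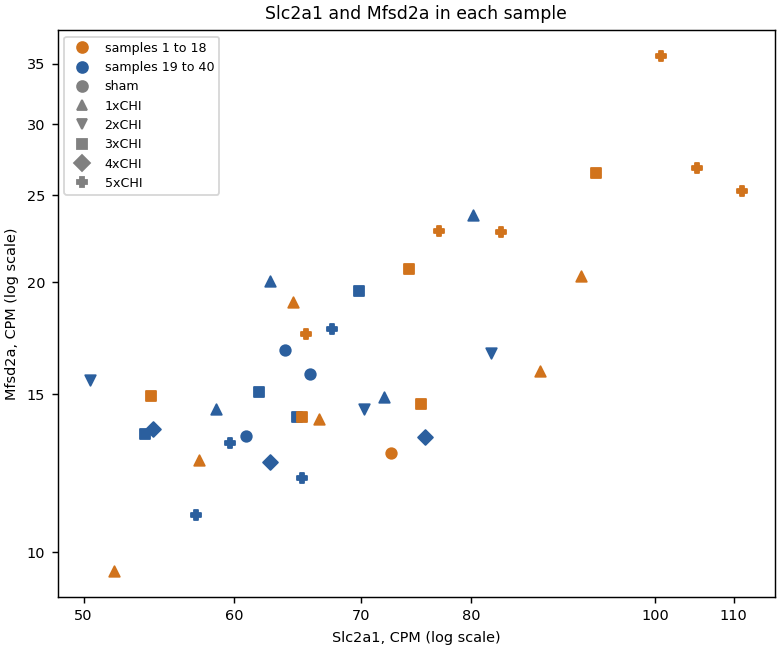
Mfsd2a level in CPM (vertical axis) against Slc2a1 level in CPM (horizontal axis) in each of the 39 samples, with orange for samples 1 to 18, blue for samples 19 to 40, a marker shape for each number of injuries and log scales on both axes. The levels rise together (Pearson r = 0.761 on the log2 scale), and the 3 points above 100 CPM of Slc2a1 are orange and from 5xCHI mice.

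Across the 39 samples, log2 CPM of Slc2a1 and Mfsd2a had a Pearson correlation of 0.761 and a Spearman correlation of 0.669 (permutation p = 1e-05 for both, the smallest that 100000 permutations can give, adjusted p = 5e-05 for 45 pairs). Without the 2 samples farthest from the median of Slc2a1 it was 0.712, and with group means removed it was 0.700. It was 0.818 within samples 1 to 18 and 0.457 within samples 19 to 40. Mfsd2a had correlations of -0.215 to 0.176 with the other 8 members.

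Abcb1a (chr5:8660077-8748575, plus strand) pumps drugs and xenobiotics back to the blood. It ranged from 13.2 to 40.3 CPM over the samples, with log2 fold changes of -0.51 to 0.15 over the 9 comparisons. Its estimated counts were not whole and its paralog Abcb1b was at 1.92 to 7.03 CPM, so reads shared between them make the Abcb1a level less certain. The antisense feature Gm42686 reached at most 0.575 CPM.

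Among the tight junction genes, Cldn5 (chr16:18776847-18778262, plus strand), which seals the paracellular gap to small molecules, was at 22.0, 19.7 and 22.0 CPM 30 min after 3xCHI. The 2xCHI mice were at 26.1, 32.4 and 24.9 CPM, so the groups did not overlap, with the injured mice lower, as for 3.17% of all features in this comparison. The log2 fold change was -0.41 (SE 0.24, edgeR adjusted p = 1.00), and -0.56 (adjusted p = 1.00, edgeR) with the sample number side as a covariate. At 24 h after 1xCHI, Cldn5 was at 26.7, 32.9, 26.3 and 34.1 CPM, and the range overlapped that of sham. The log2 fold change was 0.24 (95% confidence interval -0.17 to 0.66, edgeR). Without sham sample 6, left out after its values were seen, it was 0.50 (adjusted p = 0.620, edgeR). The 6 independent endothelial markers summed to 77.2 to 86.9 CPM in these mice. They summed to 62.1 to 65.6 CPM in 3 shams and to 103 CPM in sham sample 6. The part of vessel content in the Cldn5 level was not tested.

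Ocln (chr13:100496507-100552718, minus strand), a tight junction protein that spans the membrane, ranged from 4.34 to 9.41 CPM with log2 fold changes of -0.28 to 0.04. Tjp1 (chr7:65296165-65527781, minus strand), the scaffold inside the cell, had log2 fold changes of -0.29 to 0.23. At 24 h its change after the first injury (-0.25) and after the third (0.23) differed by -0.48 (SE 0.23, edgeR adjusted p = 0.438). Tjp1 was at 93.5 to 116 CPM in sham and 81.6 to 104 CPM 24 h after 1xCHI, and at 77.3 to 109 CPM in 2xCHI and 90.7 to 131 CPM 24 h after 3xCHI, and both pairs of groups overlapped.

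The adhesion molecules and the VEGF receptor had no unadjusted p under 0.05 in the 9 comparisons. Pecam1 (chr11:106654217-106750628, minus strand), which joins neighbouring endothelial cells and carries leukocyte passage, had log2 fold changes of -0.21 to 0.26 and was at 9.10 to 23.9 CPM. Cdh5 (chr8:104101625-104144511, plus strand), the cadherin of the adherens junction, had log2 fold changes of -0.41 to 0.10 and was at 5.99 to 16.6 CPM. Flt1 (chr5:147561604-147726011, minus strand), a receptor that binds VEGF and limits its signal, had log2 fold changes of -0.42 to 0.23 and was at 22.4 to 63.0 CPM. The lowest values of Cdh5, Flt1, Pecam1, Abcb1a and Ocln came from comparisons with sham. Without sham sample 6 they were -0.19 for Cdh5 and -0.17 for Ocln at 30 min after 1xCHI, and -0.24 for Flt1, 0.05 for Pecam1 and -0.33 for Abcb1a at 4 h.

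The second question was whether the number of injuries, with times combined, changed the members against sham. For the 5 comparisons, 0 of 10 members had an adjusted or an unadjusted p under 0.05 by edgeR, where 17%, 4.44%, 3.87%, 1.62% and 11.6% of all features passed the unadjusted threshold after 1xCHI, 2xCHI, 3xCHI, 4xCHI and 5xCHI. No feature passed the adjusted threshold (0%). DESeq2 gave 1 member an unadjusted p under 0.05, Mfsd2a after 5xCHI, and none an adjusted one. The member nearest to it in edgeR was again Mfsd2a after 5xCHI, with a log2 fold change of 0.45 (adjusted p = 0.437, edgeR). For Cldn5 after 4xCHI the log2 fold change was 0.31 (adjusted p = 1.00, edgeR), and it was -0.08 (adjusted p = 1.00, edgeR) without sample 24, in which Cldn5 was 46.2 CPM and choroid plexus markers summed to 866 CPM. Without sham sample 6 the Cldn5 value after 4xCHI was 0.55 (adjusted p = 1.00, edgeR) and after 5xCHI 0.42 (adjusted p = 0.380, edgeR) in place of 0.17.

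Over all 12 groups together, 2 of 10 members had an unadjusted p under 0.05 for any difference, Slc2a1 (adjusted p = 0.677, edgeR) and Mfsd2a (adjusted p = 0.678, edgeR), against 7.03% of all features. After adjustment 0 of 10 members and 0.0131% of all features (2 features) passed. For the 6 differences between the change after the first injury and that after a later one, 3 member values had an unadjusted p under 0.05: Tjp1 at 24 h against the third injury, and Sox17 at 4 h and Mfsd2a at 24 h against 5xCHI. In order of time, 6.5%, 3.15% and 11.3% of all features passed this threshold against 3xCHI, and 5.02%, 4.24% and 4% against 5xCHI, and 0% passed after adjustment.

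Correlations between the members over the samples were also described. For 25 of 45 pairs of members, Pearson's r over the 39 samples had an adjusted permutation p under 0.05. No share of such pairs over all features was computed, so this count has no background to be set against. The 10 pairs among Ocln, Pecam1, Cdh5, Flt1 and Abcb1a had r of 0.594 to 0.849 (median 0.701, largest adjusted permutation p 0.000208), and 0.651 to 0.855 with group means removed. The closest pair was Pecam1 and Flt1 (r = 0.849). Over all 45 pairs the median r was 0.390. All genes of a sample share its dissection and depth, and the part of these in the correlations was not tested.

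Tjp1 was correlated with Abcb1a (r = 0.694) and Cdh5 (r = 0.591) and at -0.235 with Cldn5. Sox17 was correlated with Flt1 (r = 0.614) and Pecam1 (r = 0.544), and had r of 0.00763 with Tjp1 and -0.0991 with Mfsd2a. Slc2a1 was also correlated with Flt1 (r = 0.383, adjusted permutation p = 0.0304) and Pecam1 (r = 0.373, adjusted permutation p = 0.035), and within samples 19 to 40 these values were 0.603 and 0.538, above that with Mfsd2a. The heat map of correlations shows all pairs.

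**Figure D5:**
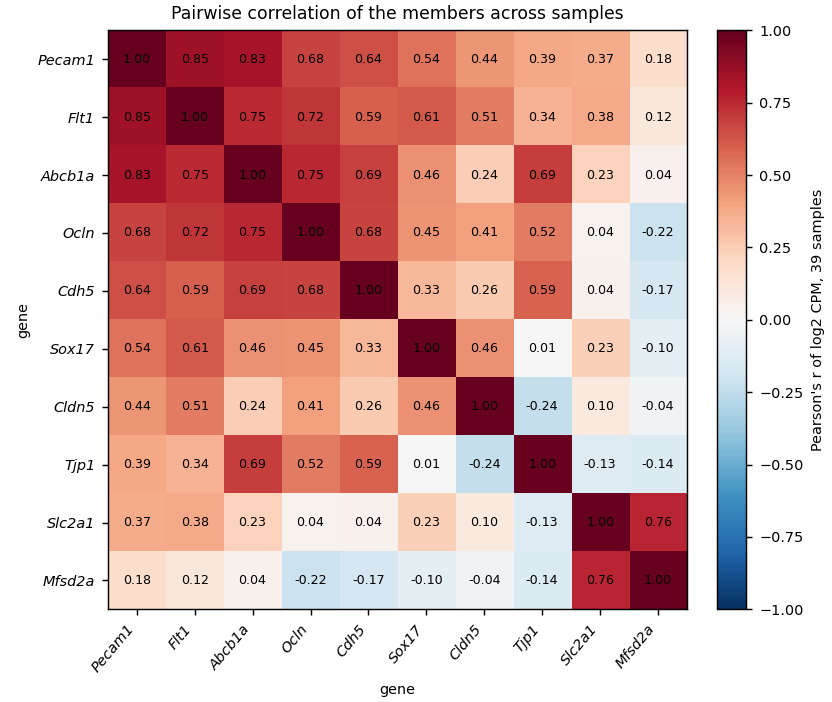
Pearson correlation of log2 CPM over the 39 samples for each pair of the 10 genes (both axes list the genes, colour gives r). Ocln, Pecam1, Cdh5, Flt1 and Abcb1a form a block with r of 0.594 to 0.849, and r of Slc2a1 with Mfsd2a is 0.761.

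Among the 15232 features tested, those whose log2 CPM was most like the mean of the 10 members over the 39 samples were Adgrf5 (r = 0.915), Adgrl4 (r = 0.841), Slco1a4 (r = 0.831), Sema3g (r = 0.823) and Zfp366 (r = 0.806). Those most like Sox17 were Eng (r = 0.739), Sema3g (r = 0.684), Tie1 (r = 0.680), Foxf2 (r = 0.664) and She (r = 0.648). These values are descriptions over samples that share dissection and depth.

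Other genes of barrier and vessel biology were followed in 7 fixed lists with 75 genes, of which 70 were tested and 0 passed the adjusted threshold by edgeR in any comparison. In the list of vascular early-response genes, all 9 were tested. Klf4, a transcription factor induced by flow in endothelium, was at 28.1, 47.1 and 4.36 CPM 30 min after 1xCHI against 4.78 to 8.44 CPM in sham (log2 fold change 2.09, SE 0.42, edgeR adjusted p = 0.162). Samples 13 and 14 were high and sample 27 lay under every sham, and without sample 27 the log2 fold change was 2.61 and passed the threshold. DESeq2 also called it. Ccn1, a secreted matrix protein, was at 67.3, 9.69 and 93.5 CPM 30 min after 3xCHI against 5.53, 3.84 and 11.5 CPM in 2xCHI mice (log2 fold change 3.02, SE 0.84, edgeR adjusted p = 1.00).

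Among the endothelial transcription factors (12 of 12 tested), Sox18, a relative of Sox17, was at 4.40, 3.09 and 3.34 CPM 30 min after 3xCHI against 6.25, 7.86 and 5.81 CPM in 2xCHI mice (log2 fold change -0.91, SE 0.23, edgeR adjusted p = 0.882). At 4 h after 1xCHI, where Sox17 was lowest, the log2 fold change of Sox18 was -0.18 (adjusted p = 0.720, edgeR). In the Notch and arterial list (9 of 10 tested), the Notch ligand Jag1 had a log2 fold change of -0.81 at 30 min after 1xCHI (SE 0.23, adjusted p = 0.162, edgeR), and the ligand Dll4 of -0.64 at 4 h (adjusted p = 0.415, edgeR), and -0.37 without sham sample 6.

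In the activation list (8 of 11 tested), the leukocyte adhesion molecule Icam1 had a log2 fold change of 1.01 at 4 h after 1xCHI (SE 0.33, adjusted p = 0.365, edgeR). Lrg1, a secreted modulator of TGF-beta signaling in vessels, had a log2 fold change of 1.38 at 24 h after 5xCHI (adjusted p = 0.654, edgeR), and 0.52 without sample 12. In the list of VEGF and angiopoietin receptors and ligands (11 of 11 tested), the co-receptor Nrp1 had a difference of -0.92 between the 24 h changes after the first injury and those after the third (adjusted p = 0.406, edgeR). The growth factor Vegfa had a log2 fold change of -0.44 after 5xCHI with times combined (SE 0.09, adjusted p = 0.243, edgeR), and DESeq2 called it. In the junction list (10 of 11 tested), the adhesion molecule Esam had a log2 fold change of -0.43 at 24 h after 3xCHI (adjusted p = 0.952, edgeR), and Afdn, the afadin scaffold, of -0.18 after 5xCHI with times combined (adjusted p = 0.373, edgeR). In the transporter list (11 of 11 tested), the monocarboxylate carrier Slc16a1 had a log2 fold change of -0.47 at 30 min after 1xCHI (adjusted p = 0.202, edgeR), opposite in sign to that of Slc2a1. The efflux pump Abcc4 had an adjusted p = 0.778 for any difference between the groups (edgeR).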

How the data were processed

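The authors deposited expected counts per gene (estimated counts that need not be whole, unnormalized and unfiltered), made by a sequencing company. The quantification tool, its version and strand handling are not given in the sources used here, mm10 is named in the submitters' processing notes, and 4.47% of values were not whole. The identifiers are those of GENCODE M21 (GRCm38), from which positions were taken. Sample 30 was left out, as the study did for its RNA after finding it an outlier in the protein data. Counts were rounded, and a feature was tested if at most 4 of 39 samples had a count under 10. Tests used edgeR 4.0.16 (TMM, quasi-likelihood, 1 fit of all 12 groups, or of 6 groups with times combined) in R 4.3.3, with Benjamini-Hochberg adjustment over 15232 features at 0.05. The fits were tested on simulated data. Levels are CPM of summed counts, and correlations used log2 CPM with a prior count of 1 and 100000 permutations (Python 3.11.15, numpy 2.4.6, scipy 1.17.1). Alternatives were DESeq2 1.42.0, library size scaling, no filter, all 40 samples, only the compared groups, the sample number side as a covariate, and each sample left out. The members, lists and tests were chosen with earlier results of these data known. Named genes were the 10 members, the 5 features most like them or like Sox17, and the 2 genes of each list with the smallest p for any difference between groups, of which 1 is not reported here.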

Additional observations from a re-analysis of the deposited data

Results flagged for a closer look

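In 4 of 70 sets of 4 to 10 samples, 1 member's highest value stood apart from the rest by more than the critical gap for its group size, where chance gives 3.50. Cldn5 was 38.0 CPM in sham sample 6, and the nearest sham was 22.0 CPM. Cldn5 was 38.2 CPM in sample 11 at 24 h after 5xCHI, and the nearest was 27.1 CPM. Pecam1 was 23.4 CPM in sample 7, the highest of the 10 samples after 5xCHI, and the nearest was 18.5 CPM. Cdh5 was 15.2 CPM in sample 15, the highest of the 10 samples after 1xCHI, and the nearest was 10.8 CPM.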

How the results depend on the processing

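Of 938 values for single genes under the alternatives, 935 kept their side of the adjusted threshold and, where they were fold changes, their direction. No main value among them passed that threshold. In most fits with 1 sample left out, that sample was in none of the groups compared. The count therefore says little about how stable the values are. Members with an adjusted p under 0.05 numbered 0 under all 46 settings, and the smallest was 0.0644 (Slc2a1, 30 min after 1xCHI, without sample 27). Member values with an unadjusted p under 0.05 over the 9 time comparisons were 5, 8 with no filter on low counts, and 3 to 9 with 1 sample left out. Over the comparisons by number of injuries they were 0, and 1 (Mfsd2a after 5xCHI) with library size scaling, no filter, all 40 samples and DESeq2, and 0 to 4 with 1 sample left out. For any difference between groups they were 2, then 1 with library size scaling and with the sample number covariate, 0 with all 40 samples, and 0 to 3 with 1 sample left out. For the differences between changes they were 3, and 1 to 5 with 1 sample left out. Features called over the time comparisons were 0, then 6 with no filter, 44 with DESeq2, 8 with only the compared groups, and 0 to 3597 with 1 sample left out (the 3597 at 30 min without sample 27 of 1xCHI, with 0 members among them). By number of injuries they were 0, then 1 with no filter, 40 with DESeq2 and 3 with only the compared groups. For any difference they were 2, then 46 with no filter, 199 with DESeq2, and 0 to 16 with 1 sample left out. For the differences between changes they were 0, and 0 to 2 with 1 sample left out. The cause of these changes was not tested. The log2 fold change of Cldn5 after 4xCHI was 0.31, and -0.077 (without sample 24) to 0.56 with 1 sample left out. Klf4 passed the threshold by DESeq2 (2.11) and without sample 27 (2.61). The exact test of Sox17 gave -1.10 to -0.64 with 1 sample left out. No paired analysis was possible because each sample was a different mouse with its own study-wide sample number. Sox17 had the fewest counts of the members, 38 to 138 per sample.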
